A study of Mus musculus with 2 samples.

Results

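The genes described here are the 43 genes of the DNA replication machinery, out of 43346 genes listed in the deposited tables. They were chosen by name: each encodes a component that licenses origins, unwinds DNA, copies it or joins the copied pieces, and its row was found by matching the gene identifier to the GENCODE mouse annotation. All 43 were found. The cells were G1E-ER4, mouse erythroid cells without working Gata1 of their own, in which a fusion of Gata1 to the ligand-binding domain of the estrogen receptor was put back, so that estradiol turns the factor on. Polyadenylated RNA was sequenced from 2 libraries of 1 group, both treated with 17beta-estradiol at 10 nM for 7 hours. The libraries are numbered as biological replicates but cite 1 and the same sample record. Nothing says that they came from separate cultures, and differences between them may thus be technical. There was no untreated sample, and the data therefore give levels and the spread between libraries, not a response to estradiol.

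Replication begins when the origin recognition complex (ORC) binds DNA and, with Cdc6 and Cdt1, loads rings of the 6 proteins Mcm2 to Mcm7. Geminin, the product of Gmnn, binds Cdt1 and prevents a second loading in the same cycle. The kinase of Cdc7 and Dbf4 then helps Cdc45 and the GINS complex to join the rings, which become the active helicase. Polymerase alpha with primase lays down primers, polymerases epsilon and delta extend them, and Pcna, loaded by replication factor C (RFC), holds the polymerase on DNA. Erythroid precursors keep dividing while they mature, and their last divisions are followed by loss of the nucleus.

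Levels are given as TPM, a share of the library corrected for transcript length, so that genes can be compared with each other. Replicate 1 held 59610969 expected counts and replicate 2 held 44689405. All 10 erythroid markers were detected. In replicates 1 and 2 Klf1 had 984 and 1394 TPM, Tal1 148 and 174 and Epor 184 and 153. Hba-a1 had 6573 and 3361 TPM and Hbb-bs 11770 and 6656 TPM. Gata1 had 1251 and 872 TPM. Its reads can come from the introduced fusion, so its level does not speak for the cells' own gene. Of the markers of other cell types, 3 of 6 megakaryocyte, 1 of 6 myeloid, 1 of 5 lymphoid, 1 of 4 mast cell and 0 of 6 endothelial and stromal genes were detected. In bulk RNA, fewer cells in a cycle and less RNA per cell cannot be told apart.

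The 250 bases before the start of 4 members are shown because these genes differ in whether they carry the letters of the E2F core; E2F factors are known to control many S phase genes. The sequences come from RefSeq on GRCm38.p6. The core was searched as TTTCCCGC, TTTCGCGC, TTTGCCGC or TTTGGCGC on either strand, and matches are in capitals. The windows are chr6:88898781-88899030 on the minus strand for Mcm2, chr8:75109259-75109508 on the plus strand for Mcm5, chr1:128359706-128359955 on the minus strand for Mcm6 and chrX:93632156-93632405 on the minus strand for Pola1. No exon in the GENCODE M21 annotation lies in these windows.
Mcm2: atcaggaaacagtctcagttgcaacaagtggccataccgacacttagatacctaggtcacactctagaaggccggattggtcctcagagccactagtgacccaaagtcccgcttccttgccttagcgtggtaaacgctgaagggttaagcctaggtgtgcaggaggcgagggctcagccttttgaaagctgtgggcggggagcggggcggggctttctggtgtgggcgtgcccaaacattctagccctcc
Mcm5: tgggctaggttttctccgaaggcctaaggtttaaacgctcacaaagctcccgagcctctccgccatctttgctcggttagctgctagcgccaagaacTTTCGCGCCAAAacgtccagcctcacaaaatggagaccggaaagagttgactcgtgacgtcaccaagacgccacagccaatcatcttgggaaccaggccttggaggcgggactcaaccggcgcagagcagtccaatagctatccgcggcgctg
Mcm6: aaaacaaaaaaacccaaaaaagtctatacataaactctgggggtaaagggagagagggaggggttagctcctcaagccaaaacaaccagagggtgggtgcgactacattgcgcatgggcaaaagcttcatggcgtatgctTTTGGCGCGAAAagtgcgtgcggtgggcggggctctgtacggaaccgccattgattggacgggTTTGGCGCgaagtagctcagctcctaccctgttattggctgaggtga
Pola1: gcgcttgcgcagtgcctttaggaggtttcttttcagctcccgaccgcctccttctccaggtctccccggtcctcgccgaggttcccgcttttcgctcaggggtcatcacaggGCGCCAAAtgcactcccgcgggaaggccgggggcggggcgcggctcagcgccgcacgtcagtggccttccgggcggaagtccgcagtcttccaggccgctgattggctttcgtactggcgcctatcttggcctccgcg

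The Mcm5 window held 2 cores that overlap by 4 bases, at 153 and 149 bases before the start. The Mcm6 window held 3, of which 2 overlap by 4 bases, and the Pola1 window held 1. Mcm2, the member of the helicase with the highest level, had none in its window. A promoter entry was found for 35 of the 43 members, and where a gene had several, the one nearest the 5′ end of its most-counted transcript was used. Over the window of 250 bases before to 50 bases after the start, 14 of the 35 (40%) held a core, and over all 44 promoters of the members 15 (34.1%) did. The share was 4.64% of 8371 promoters of detected protein-coding genes, 2.27% of all 32851 promoters and 26.8% of 41 promoters of other replication genes. The median GC content of the windows was 63% in the members and 61.7% in the promoters of detected genes. The 14 members with a core had a median level of 11.6 TPM and the 21 without one had 31.5 TPM, with ranges of 2.30 to 430 TPM and 1.78 to 508 TPM that overlap almost entirely. A match describes letters only and was not tested as a binding site.

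All 43 genes were detected, meaning that neither library had under 1 TPM, against 38.3% of the 21474 protein-coding genes. By transcripts annotated as protein coding alone, 41 of the 43 reached 1 TPM in both libraries, against 7717 of the 8219 genes in that 38.3%. Their median mean level was 19.7 TPM, against 20.8 TPM for the 8219 detected protein-coding genes, and 21 of the 43 lay above that second median. As a list the replication genes were therefore near the middle of the detected genes by mean level of all transcripts. The side differed by library, with medians of 27.5 TPM against 21.2 TPM in replicate 1 and 16.3 TPM against 19.6 TPM in replicate 2. With coding transcripts the medians were 10.1 TPM against 13.3 TPM. The range was wide: by all transcripts the lowest was Prim1 at 1.78 ± 0.148 TPM and the highest was Pold2 at 508 ± 136 TPM (SD, n = 2). In replicate 1 Pold1 stood above Pold2. With coding transcripts Mcm2 was highest at 295 TPM and, Rfc1 aside, Orc3 lowest at 0.40 TPM. They held 0.413% of the counts in replicate 1 and 0.381% in replicate 2. Levels across the 43 genes had a Pearson correlation of 0.974 and a Spearman correlation of 0.966 between the libraries on the log2(TPM + 1) scale.

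**Figure D1:**
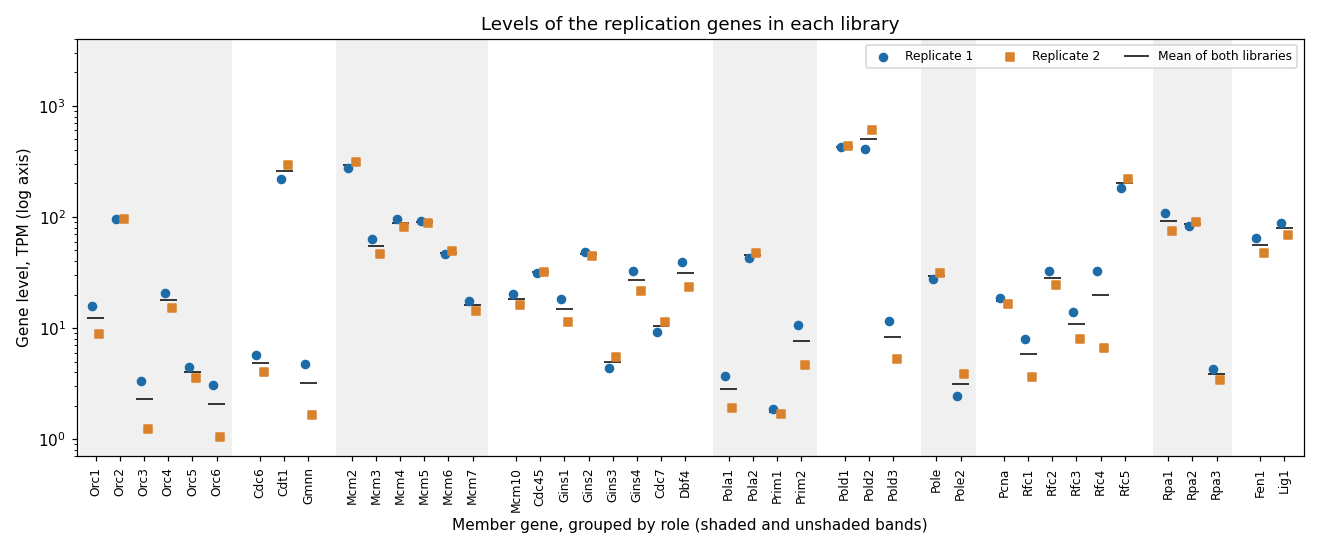
Level of each member in TPM on a log axis, with replicate 1 as circles, replicate 2 as squares and the mean of both as a line, grouped by role. Pold1, Pold2, Mcm2, Cdt1 and Rfc5 lie highest, and within most complexes the subunits differ by far more than the libraries do.

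The ORC subunits, whose products bind origins, were low apart from Orc2. Orc2 (chromosome 1, 58462771 to 58505109, minus strand, GRCm38) had 95.6 TPM in replicate 1 and 96.5 TPM in replicate 2. Orc1, the subunit whose level is known to follow the cycle in mammalian cells, had 15.8 and 8.81 TPM, and Orc4 had 20.7 and 15.2 TPM. Orc5 had 4.43 and 3.58 TPM. Orc3 had 3.37 and 1.23 TPM, of which coding transcripts held 0.48 and 0.32 TPM. Orc6 had 3.06 and 1.05 TPM. Orc2 stood above the other 5 subunits in both libraries, at 46.7 times Orc6 by mean level. The 6 subunits were all higher in replicate 1 by scaled counts, with log2 ratios of 0.14 to 1.47.

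The size of the gap between Orc2 and the others depended on short transcripts, while Orc2 was highest by each measure. Orc2-205, a transcript of 370 bases annotated as protein coding, held 70.8% (replicate 1) and 78% (replicate 2) of the TPM of the gene, but 13.8% and 19.2% of its counts. Orc2-201, of 3561 bases, held 85.9% and 80.8% of the counts. When only coding transcripts at least 50% as long as the longest one were summed, Orc2 had 26.5 and 21 TPM. By that measure it stood 11.5 times above Orc6, 6.48 times above Orc5 in place of 24.0, and 5.25 times above Orc1 in place of 7.81. The gap widened to 76.5 in place of 41.7 against Orc3, and to 113 in place of 5.36 against Orc4. Orc4-209, of 383 bases, held 61.5% and 73.3% of the TPM of Orc4, and its long coding transcripts had 0.28 and 0.14 TPM.

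The loading factors differed widely in level. Cdt1 (chromosome 8, 122568015 to 122573554, plus strand), which brings the Mcm proteins to ORC, had 219.6 and 294 TPM. Cdc6, the ATPase that works with it, had 5.74 and 4.0 TPM. Gmnn (chromosome 13, 24751845 to 24761923, minus strand), the inhibitor of Cdt1, had 4.76 and 1.64 TPM. Cdt1 thus stood 46.1 times above Gmnn in replicate 1 and 179 times above it in replicate 2. Cdt1 has 1 listed transcript, which is coding, so its own level did not rest on transcript assignment. Gmnn has 5, and its leading one, Gmnn-202, held 88.0% and 51.2% of its TPM. With 198 and 52 counts for Gmnn, the size of the gap is less firm than its direction. Another coding gene, Gm20388, overlaps Cdt1 on the same strand. The gene counts of Cdt1 were whole in both libraries, at 22624 and 21257, so its reads were not divided in fractions between them.

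The helicase ring repeated more closely between libraries than the other 9 groups, with a median SD of 10.4% of the mean, against 20.5% over all members. Mcm2 (chromosome 6, 88883474 to 88898780, minus strand) had 277 and 313 TPM. Mcm4 had 95.9 and 80.6 TPM and Mcm5 had 91.6 and 87.3 TPM. Below them were Mcm3 at 63.0 and 46.4 TPM, Mcm6 at 46.3 and 49.2 TPM and Mcm7 at 17.7 and 14.4 TPM. Mcm2 was highest and Mcm7 lowest in both libraries, with a ratio of 18.4 by mean level, although their products sit in the ring in equal numbers. Mcm4 and Mcm5 exchanged places between the libraries, as did Mcm3 and Mcm6, so the order within those pairs was not resolved. All 6 genes repeated within 1.5-fold, with log2 ratios of -0.29 to 0.33, and 0 of 6 reached the 2-fold limit for a call, although all 6 had an unadjusted exact binomial p under 0.05. Mcm2, Mcm4 and Mcm5 have 1 transcript each in the tables, and the coding share of TPM in Mcm3 and Mcm6 was 98.6% or more. In Mcm7 it was 72.9% and 72.1%.

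Among the activation factors Gins2 was highest in both libraries by all transcripts, and by coding transcripts Dbf4, Cdc45 and Gins4 all stood above it. Cdc45, which joins the ring to form the active helicase, had 31.4 and 32.1 TPM. The GINS subunits had 48.8 and 44.1 TPM for Gins2, 33.0 and 21.6 TPM for Gins4, 18.2 and 11.3 TPM for Gins1 and 4.41 and 5.55 TPM for Gins3, in that order in both libraries. Gins2 stood 9.32 times above Gins3, yet 41.7% and 71.6% of its TPM lay in Gins2-202, a processed transcript of 473 bases. By coding transcripts Gins4 was the highest subunit and stood 5.47 times above Gins3. Mcm10, which assists activation, had 20.4 and 16.1 TPM, of which 77.6% and 79.1% lay in Mcm10-209, annotated as a retained intron, and its coding transcripts had 4.38 and 3.27 TPM. For the kinase, the activating subunit gene Dbf4 had 39.5 and 23.6 TPM and the catalytic subunit gene Cdc7 had 9.31 and 11.5 TPM, a ratio of 4.25 in replicate 1 and 2.06 in replicate 2. The coding transcripts of Cdc7 had 6.47 and 6.48 TPM, and with coding transcripts the ratio was 5.47 and 3.63.

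The polymerases spanned the whole range of the list by mean level of all transcripts, though not by coding transcripts. Pold1 (chromosome 7, 44532746 to 44548849, minus strand), the catalytic subunit of polymerase delta, had 422 and 437 TPM. Pold2 (chromosome 11, 5872180 to 5878292, minus strand), its second subunit, had 412 and 604 TPM. Pold3, another accessory subunit, had 11.6 and 5.24 TPM, and both larger genes lay far above it in each library. The ratio of Pold2 to Pold3 was 60.4 by mean level, with 35.6 in replicate 1 and 115 in replicate 2. By coding transcripts Pold1 led at 225 ± 11.6 TPM, Pold2 followed at 98.9 ± 8.18 TPM and Pold3 had 2.98 ± 1.22 TPM (SD, n = 2). The short processed transcript Pold2-202, of 342 bases, held 65.0% and 72.9% of the TPM of Pold2 but 24.2% and 32.7% of its counts.

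Polymerase alpha and epsilon were lower. Pola2, the accessory subunit of polymerase alpha, had 43.0 and 47.3 TPM. Pola1, the catalytic subunit, had 3.74 and 1.90 TPM. The primase genes had 10.6 and 4.68 TPM for Prim2, the large subunit, and 1.88 and 1.67 TPM for Prim1, the catalytic one. Pola2 stood 25.4 times above Prim1, and 35.6 times by coding transcripts. Pole, the catalytic subunit of polymerase epsilon, had 27.5 and 31.5 TPM and Pole2 had 2.44 and 3.89 TPM. That order turned round with the transcripts counted. Pole-203, of 747 bases, held 19.8 and 25.8 TPM of Pole, Pole-202, of 1523 bases, held 4.74 and 2.05 TPM, and Pole-201, of 7163 bases, held 2.27 and 2.89 TPM. Long coding transcripts leave out both of the shorter ones, and by that measure Pole had 2.58 ± 0.438 TPM and Pole2 had 3.17 ± 1.03 TPM (SD, n = 2), a difference smaller than the spread. Pole2 overlaps the coding gene Gm49384 on the same strand.

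Pcna, the sliding clamp, had 18.8 and 16.3 TPM, near the median of the list. It is the only member whose gene count was not whole in the tables, so some of its reads were divided between loci. Pcna-ps2, a processed pseudogene, held 34.2 and 17.7 counts against 1282 and 789 for Pcna. Among the loader genes Rfc5 (chromosome 5, 117378103 to 117389047, minus strand) had 183 and 218 TPM, Rfc2 had 32.8 and 24.2 TPM, Rfc3 had 13.9 and 7.95 TPM and Rfc1, the large subunit, had 8.06 and 3.63 TPM. Rfc4 had 32.9 and 6.62 TPM, the widest fold between libraries on the list. Of its TPM 82.5% and 72.4% lay in Rfc4-202, of 416 bases and annotated as nonsense-mediated decay. The coding transcripts had 5.75 and 1.83 TPM for Rfc4 and 2.91 and 1.83 TPM for Rfc3. Most of the level of Rfc5 lay in Rfc5-202, of 772 bases and annotated as coding, with 82.6% and 95% of TPM, and its long coding transcripts had 7.03 and 6.07 TPM. The transcripts holding most of Rfc1 carry no type in the later annotation, so no coding level is given for it.

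The single-strand binding protein RPA coats unwound DNA. Rpa1, the large subunit, had 109 and 74.0 TPM, Rpa2 had 83.6 and 89.9 TPM and Rpa3, the smallest, had 4.26 and 3.44 TPM. Rpa1 and Rpa2 changed places between the libraries, while Rpa3 was lowest in both. Transcripts annotated as retained introns led in Rpa1 (Rpa1-205, 66.8% and 66.6% of TPM) and in Rpa2 (Rpa2-202, 81.7% and 80.3%). By coding transcripts Rpa1 had 35.5 and 23.7 TPM and Rpa2 had 9.47 and 7.36 TPM, and the ratio of Rpa1 to Rpa3 was 7.77 in place of 23.8. The genes that finish lagging-strand pieces were both well expressed: Fen1, the flap nuclease, had 64.0 and 47.1 TPM and Lig1, the ligase, had 88.3 and 69.3 TPM. In Lig1 83.4% and 91.0% of TPM lay in Lig1-207, a transcript of 2968 bases annotated as processed, and its transcripts annotated as coding had 6.83 and 2.41 TPM.

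**Figure D2:**
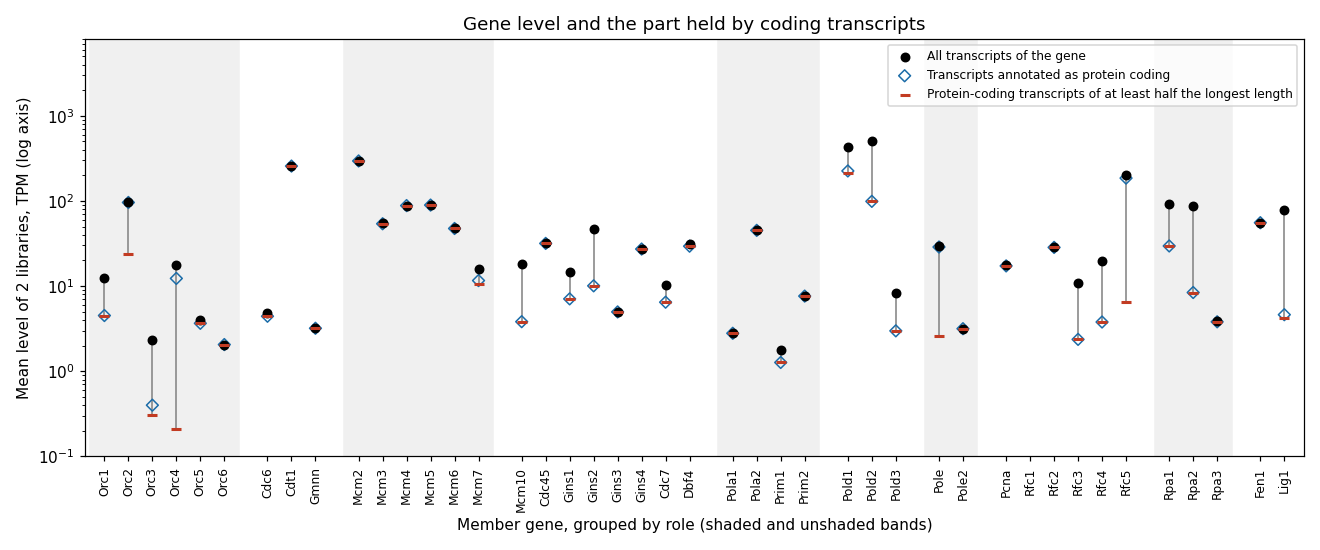
Mean level of each member over 2 libraries, in TPM on a log axis, for all transcripts (circles), transcripts annotated as protein coding (diamonds) and coding transcripts at least 50% as long as the longest one (bars), with Rfc1 left out. Mcm2 to Mcm6 stay in place and Mcm7 is lower, at 10.5 TPM by the last measure, while Orc4, Rfc5, Pole, Rpa2 and Lig1 are more than 10 times lower by it.

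The transcript tables list 218 transcripts of the 43 genes, of which 10 are not in the later annotation. In 37 genes 1 transcript led in both libraries and held over 50% of TPM on average, and in 36 of these it did so in each library, the exception being Gins2. In 16 it held over 90% in both, of which 8 have 1 transcript in the tables and hence hold all of it. The leading transcript was not annotated as protein coding in 13 genes by TPM and in 6 by counts. These were Orc1, Orc3, Mcm10, Gins1, Gins2, Pold2, Pold3, Rfc1, Rfc3, Rfc4, Rpa1, Rpa2 and Lig1 by TPM. Rfc1 is in both numbers only because its leading transcripts carry no type in the later annotation. The leading transcript by TPM differed between libraries in 4 genes: Cdc7, Gins1, Pold3 and Rfc1. Coding transcripts held 66.1% and 65.2% of the members' TPM, against 73.3% and 72.0% for the detected protein-coding genes. By counts the shares were 87.3% and 88.2%, against 86.4% and 85.6%. TPM divides by length, so a short transcript with few reads can hold much of a gene's TPM. Coding transcripts held under 50% of TPM in 13 of the 43 genes, and in 20.8% of the detected protein-coding genes. Rfc1, with its untyped transcripts, is among the 13.

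Members of higher GC content had higher levels. Between the GC content of the longest coding transcript and log2(mean TPM + 1), Pearson's r was 0.685 and Spearman's rho 0.639 over 43 members, against 0.312 and 0.322 over 8206 detected protein-coding genes. The genes share the same 2 libraries and are not independent, so this is a description. The 13 members in the lowest of 4 equal-sized GC bins of the detected genes had a median of 4.01 TPM, against 10.2 TPM for all detected genes there. The 4 in the highest bin, Cdt1, Mcm2, Pold1 and Pold2, had a median of 362 TPM, against 48.5 TPM. Without Pold1, Pold2 and Cdt1 r was 0.542 over 40 members, and by long coding transcripts of all members it was 0.676. Over 42 other replication genes r was 0.410. The part of base composition in the levels was not tested.

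**Figure D3:**
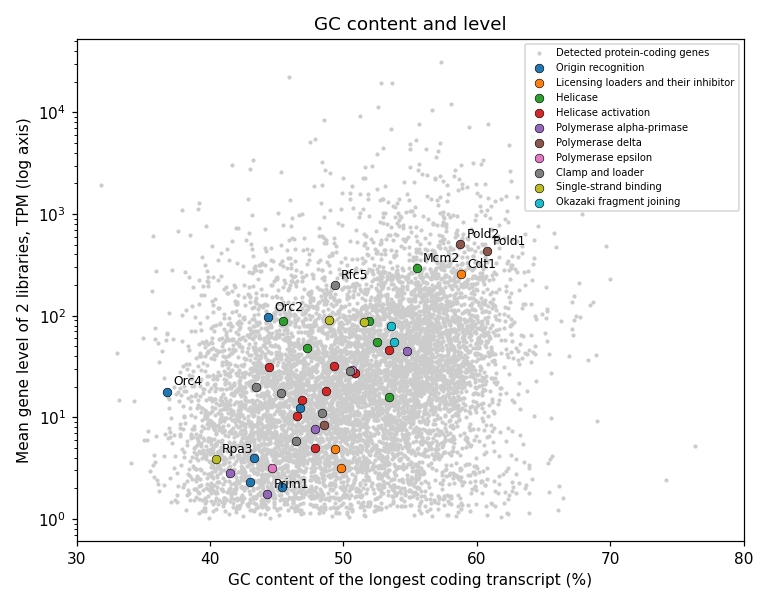
Mean level of 2 libraries in TPM (log axis) against GC content of the longest coding transcript in %, for detected protein-coding genes (grey) and the members (coloured by role). The 4 members of highest GC, Pold1, Cdt1, Pold2 and Mcm2, lie between 257 and 508 TPM.

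Each gene with at least 10 counts was compared between the libraries with an exact two-sided binomial test on TMM-scaled expected counts. The test compares these 2 libraries and takes counting as the only error. A gene was called where the adjusted p was under 0.05 and the fold reached 2. This held for 5 of the 43 members, against 11% of the 11285 genes tested and 7.29% of detected protein-coding genes. All 5 were higher in replicate 1, against 8.32% of genes tested and 5.88% of detected protein-coding genes called in that direction, and 0 were higher in replicate 2, against 2.69% of genes tested. Rfc4 (chromosome 16, 23113943 to 23127737, minus strand) had 669 and 116 counts, a log2 ratio of 1.90 (exact binomial test, adjusted p = 2.55e-50). Orc6 had 232 and 54 counts, a log2 ratio of 1.47. Gmnn had 198 and 52 counts, a log2 ratio of 1.29. Orc3 had 258 and 69 counts, a log2 ratio of 1.27, and Prim2 had 980 and 303 counts, a log2 ratio of 1.07. Adjusted p-values of the exact binomial test for these 4 lay between 5.65e-32 and 1.56e-09. The counts of Orc6 and Gmnn in replicate 2 are the lowest of any member. Rfc4 overlaps the coding gene Eif4a2 and Orc6 overlaps Vps35, each on the opposite strand, as do 11 members in all with some coding gene. Whether the counting used strand is not given in the sources used here, and without it reads of such a pair cannot be told apart.

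The median log2 ratio of the members was 0.19, against 0.02 over all genes tested, and 28 of 43 were higher in replicate 1, against 51.4% of genes tested. Of the members 29 of 43 had TPM within 1.5-fold between libraries, against 70.8% of detected protein-coding genes. Between GC content and the log2 ratio, r was -0.377 over 43 members, against -0.218 over 8206 detected genes. From the lowest to the highest GC bin the members had median log2 ratios of 0.19, 0.44, 0.19 and -0.38. The median ratio was thus not graded across the lower bins, and was negative only in the highest. Single ratios were negative outside it too: 15 of the 43 members were higher in replicate 2, among them Pole2 of the lowest bin at -0.79. The part of base composition in these ratios was not tested. edgeR's exact test, with a dispersion estimated from the same pair, called 0 members and 72 genes (0.638%), with 2 members and 576 genes at an unadjusted p under 0.05. Because that dispersion takes in any real difference between the libraries, a count of 0 there does not show that the members agreed.

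**Figure D4:**
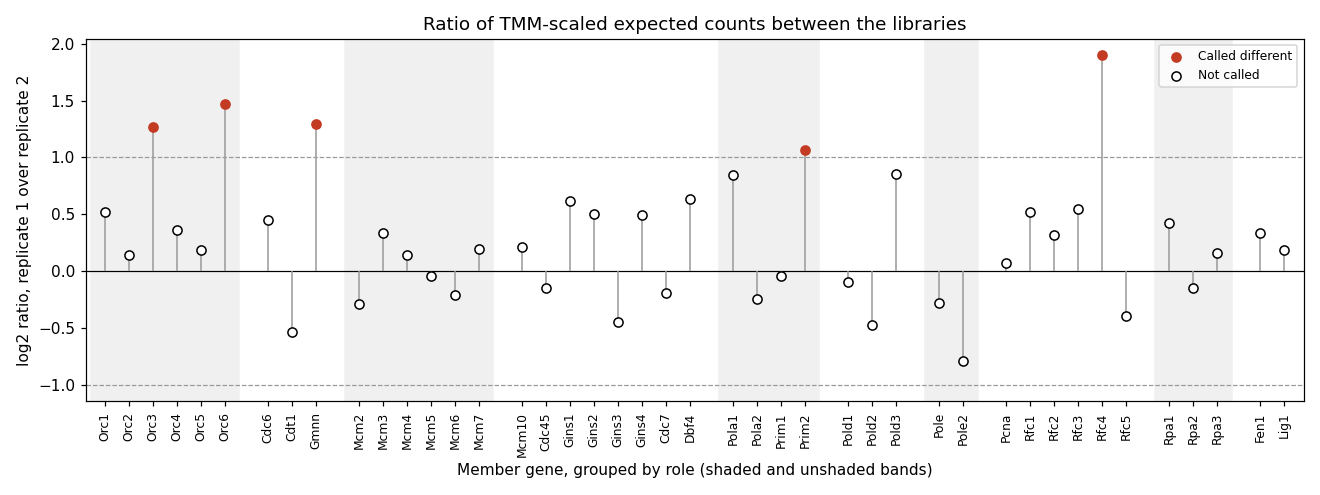
Log2 ratio of TMM-scaled expected counts, replicate 1 over replicate 2, for each member grouped by role, with dashed lines at a fold of 2. Filled points are the 5 called members, Rfc4, Orc6, Gmnn, Orc3 and Prim2, all above the line.

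Of a list of 42 other replication genes, covering fork companions, licensing control and chromatin assembly, 40 were detected, with a median of 29.5 TPM. By all transcripts the highest were Rnaseh2a and Rnaseh2c, subunits of the nuclease that removes RNA from DNA, at 610.1 and 923 TPM and at 506 and 399 TPM. Lrwd1, an ORC-associated protein, had 216 and 230.4 TPM, and Cul4a, a scaffold of the ligase that marks Cdt1 for destruction, had 160.5 and 224 TPM. The lowest by all transcripts were Mcm9 at 0.59 and 0.66 TPM, Tipin at 2.00 and 0.61 TPM, Mcm8 at 3.60 and 2.69 TPM and Clspn, the checkpoint adaptor, at 5.89 and 2.21 TPM. With coding transcripts Stn1 was lowest at a mean of 0.30 TPM, and Dna2, Rif1 and Dtl also lay below Clspn. In this list of 42, 3 genes were called different, Top2a, Fbxo5 and Tipin, all higher in replicate 1. The share called was 11% of all genes tested and 7.29% of detected protein-coding genes. In that direction it was 8.32% and 5.88%. By coding transcripts Rnaseh2a averaged 38.9 TPM, below Rnaseh2c at 334, Lrwd1 at 210.1, Top1 at 146 and Cul4a at 126 TPM, so its place at the top holds for all transcripts together.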

How the data were processed

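Polyadenylated RNA of G1E-ER4 cells was measured in 2 libraries of 1 group. Per the notes that accompany the files, values came from alignments to the transcriptome on mm10 with GENCODE M4, whereas aligner and quantifier are not given in the sources used here. Authors' files of 2 kinds were used. The authors deposited expected counts, estimated fragments per gene or transcript that were not normalized. The deposited TPM and FPKM values were scaled by effective length and depth, per the file headers. The deposited interval bounds of TPM entered no result. Rows that name no gene held 2 and 0 counts and were left out.

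Names, positions, transcript types and base composition were taken from GENCODE M21 (GRCm38, the assembly also called mm10), which matched 42462 of 43346 gene rows and 101510 of 103639 transcript rows. Expected counts were rounded and scaled with TMM (edgeR 4.0.16, R 4.3.3), and log2 ratios carried a prior count of 0.5. Genes with at least 10 counts over both libraries were compared by a two-sided exact binomial test (scipy 1.17.1), with Benjamini-Hochberg adjustment over all 11285 genes. DESeq2 1.42.0 size factors, other filters and other estimates were tried as alternatives. The code was tested on simulated data. Counts of the libraries differed far beyond sampling noise, with a chi-square per degree of freedom of 347.8 over 11285 genes, so they were kept as 2 samples.

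The members and lists were chosen with earlier results of these data known. All members are named, with the highest and lowest 4 of the other replication genes, 6 erythroid markers and, in each complex, the extremes. The genes of that other list called different, or placed by coding transcripts, were named after their values were seen. The coding and long coding levels, the GC relation and the promoter search were added after seeing the data. Errors are SDs over 2 libraries. Intervals were not computed for the counts, and depth was above 50 counts in every member and library.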

Additional observations from a re-analysis of the deposited data

How the results depend on the processing

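Of 81 alternatives over 15 results, 64 stayed within a set limit, 1.5-fold for counts and, for most other results, the SD of the libraries. A value from 1 library alone is nearly bound to stay within that SD. All 43 members passed the filter of at least 1 TPM, so that alternative could not differ. For the median log2 ratio the limit was a share of the ratio itself, not a spread. The 64 are thus no measure of how firm the results are. No paired analysis was possible because there was 1 group. The median level of the members was 19.7 TPM, and it was 10.1 TPM with coding transcripts and 7.09 TPM with long coding transcripts (13.3 and 10.1 TPM for the detected genes), alternatives chosen after seeing the data. For Mcm2 over Mcm7 these gave 25.4 and 28.1 in place of 18.4. The number of members detected was 41 and 40 by them, against 7717 and 7276 of the 8219 detected protein-coding genes. By long coding transcripts the ratio of Pole to Pole2 reversed, at 0.815, where both Pole-203 and Pole-202 are left out. The RFC ratio was not run on coding transcripts, since most of Rfc1 has no annotated type, and Rfc1 counts as near 0 in the other coding values. The number of members called different was 10 at a fold of at least 1.5, where 27.5% of genes were called, and 0 with edgeR's exact test and the dispersion of the pair. Total-count scaling moved the median log2 ratio of all genes by 0.21 and gave 0.40 for the members, with 35 of 43 higher in replicate 1 and 7 called, against 14% of genes. The GC correlation of 0.685 was 0.578 with coding transcripts and 0.542 without Pold1, Cdt1 and Pold2. Leaving out a library gave 43 detected members in either case, a median of 16.3 to 27.5 TPM, 39 to 40 genes led by 1 transcript, 15.7 to 21.8 for Mcm2 over Mcm7 and 0.673 to 0.691 for the GC correlation. Without replicate 1 Orc2 over Orc6 was 91.9, Pold2 over Pold3 115 and Rfc5 over Rfc1 60.0; without replicate 2 they were 31.2, 35.6 and 22.7. Depth limits the low members most: Gmnn, Orc6, Rpa3 and Orc3 had 52 to 69 counts in replicate 2.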
